A study of Mus musculus with 6 samples.

Results

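Globin genes encode the protein chains of hemoglobin, and the genes described here are the adult alpha globins *Hba-a1* and *Hba-a2*, the adult beta globins *Hbb-bs* and *Hbb-bt*, the embryonic globins *Hbb-bh1*, *Hbb-y* and *Hba-x*, and *Ahsp*, whose product binds free alpha chains. They were taken by symbol and not by a threshold on their values, although earlier results of these data were known when they were chosen. Of the 8 symbols, 7 matched an Ensembl identifier with counts, out of 39179 genes listed in the whole series, and *Ahsp* was not analysed here. RNA-seq was performed on total bone marrow of 6 littermate mice. The 3 *MxCDX2* mice carried *RsCDX2*, a *Rosa26* allele from which human CDX2 is made once Cre has removed a stop cassette, together with *Mx1Cre*, in which the interferon-inducible *Mx1* promoter drives the Cre recombinase. The control group pooled mice of 3 genotypes, *RsCDX2* alone (control 1), *Mx1Cre* alone (control 2) and wild type (control 3), with 1 mouse each, so no control genotype was replicated. Poly(I:C) was given to the controls as well as to the *MxCDX2* mice, in 3 doses of 10 µg/g at an age of 3 months, and the marrow was taken at 6 weeks. The *Mx1* promoter is active in many cell types after interferon, and recombination in each lineage was not measured here.

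Adult hemoglobin is made of paired alpha and beta chains, each holding a heme, and its genes are among the most strongly transcribed in maturing erythroblasts. The alpha and beta genes lie in separate clusters on different chromosomes, where upstream enhancers bound by erythroid factors drive them, and the embryonic genes of both clusters are silenced in adult marrow. The adult genes of each cluster are recent duplicates of one another. In the GENCODE M21 annotation (GRCm38), *Hba-x*, *Hba-a1* and *Hba-a2* lie on the plus strand of chromosome 11, at chr11:32276400-32278116, chr11:32283511-32284465 and chr11:32296489-32297298. *Hbb-bt*, *Hbb-bs*, *Hbb-bh1* and *Hbb-y* lie on the minus strand of chromosome 7, at chr7:103812524-103813996, chr7:103826534-103828096, chr7:103841637-103843164 and chr7:103851749-103853216.

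The duplicates are shown first because their likeness bears on every count of a single gene. The coding regions of *Hba-a1* and *Hba-a2*, 429 bases each with the stop codon, differed at 1 base (C381T, counted from the A of the start codon, *Hba-a1* first), an identity of 99.77%. Those of *Hbb-bs* and *Hbb-bt*, 444 bases each, also differed at 1 base (C417T, *Hbb-bs* first). The stretches of 60 coding bases around these positions, from the GENCODE M21 transcripts, are given with the differing base in capitals.
Hba-a1: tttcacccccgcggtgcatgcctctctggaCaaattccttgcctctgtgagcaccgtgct
Hba-a2: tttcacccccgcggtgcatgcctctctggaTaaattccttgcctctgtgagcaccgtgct
Hbb-bs: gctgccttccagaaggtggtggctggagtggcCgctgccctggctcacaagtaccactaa
Hbb-bt: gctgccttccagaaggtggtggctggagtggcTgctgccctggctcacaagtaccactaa
A read that falls wholly within identical sequence cannot be assigned to one gene of a pair. Of all windows of 50 bases in the reference transcript, 67.5% in *Hba-a1*, 86.9% in *Hba-a2*, 65.8% in *Hbb-bs* and 58.3% in *Hbb-bt* were also present in the partner gene. With windows of 100 bases the shares were 56.5%, 74.5%, 62.6% and 54.8%. No window of the 3 embryonic genes was shared with another of the listed globin genes, their coding regions being 62.0% (*Hba-x* with *Hba-a1*), 74.3% (*Hbb-y* with *Hbb-bs*) and 74.1% (*Hbb-bh1* with *Hbb-bs*) identical to the adult ones. The line of the deposited files for reads mapped to several places was 0 in all 6 mice, so the number of globin reads lost in this way is not known, and the split between the genes of a pair is uncertain.

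The promoter sequences are shown because the 4 adult genes moved together. RefSeq gives a promoter for 6 of the 7 analysed genes (GRCm38.p6), and 5 short motifs were searched on both strands of the 250 bases before each start. CACCC, the box bound by erythroid Krüppel-like factors, was present in 6 of the 6, against 52.0% of 32851 promoters of all genes. Next to the start, the promoters of *Hba-a1* and *Hba-a2* hold the same sequence apart from a shift, so the 6 are not separate observations. The theta globins *Hbq1a* and *Hbq1b* (log2 fold changes -4.36 and -4.06) held no CACCC in the same window. Whether any motif bears on these changes was not tested. CCAAT was present in 5 of 6 (33.8% of all promoters), TATAAA in 2 of 6 (12.4%) and AGATAA, which holds the core bound by GATA factors, in 1 of 6 (10.0%). Only exact letters were searched, so close variants were not counted, such as the TATAAG near the start of *Hba-a1*, *Hba-a2* and *Hbb-bs*. TTTATG, of the type bound by CDX proteins, was found in 1 of 6, in *Hbb-y* (10.8%). It was matched there at 29 to 24 and at 158 to 153 bases before the start. The nearer match, printed below, lies nearly at the position of TATAAA in *Hba-x* and *Hbb-bt* (28 to 23 bases before the start). The 100 bases before the RefSeq start are printed for an adult alpha, an adult beta and an embryonic gene, on the strand of the gene, with the matches in capitals (CATAAA is TTTATG on the opposite strand). They lie at chr11:32296392-32296491 (plus strand), chr7:103827929-103828028 and chr7:103853208-103853307 (both minus strand).
Hba-a2: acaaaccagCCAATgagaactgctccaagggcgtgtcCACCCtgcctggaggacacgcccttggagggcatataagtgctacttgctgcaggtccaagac
Hbb-bs: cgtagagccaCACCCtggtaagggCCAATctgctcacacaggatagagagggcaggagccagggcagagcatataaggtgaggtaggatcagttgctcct
Hbb-y: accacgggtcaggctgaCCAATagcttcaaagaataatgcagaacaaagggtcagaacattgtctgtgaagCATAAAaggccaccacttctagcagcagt
In these windows the CACCC box began 63 bases before the start in *Hba-a2* and 90 bases before it in *Hbb-bs*, and CCAAT began at 91, 76 and 83 bases in *Hba-a2*, *Hbb-bs* and *Hbb-y*. Such matches are descriptions of the letters and do not show binding.

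The 4 adult globin genes fell about 18-fold together in the bone marrow of *MxCDX2* mice. Values are normalized counts, which are read counts scaled to the mean library size of the 6 mice after TMM normalization. *Hbb-bs*, the major adult beta globin, had 972464, 1227285 and 1208569 normalized counts in control mice 1, 2 and 3, against 102241, 28926 and 55341 in *MxCDX2* mice 1, 2 and 3. *Hbb-bt*, its duplicate, had 268145, 252161 and 226646 in control mice, against 23415, 5312 and 13422 in *MxCDX2* mice. For both beta genes, the highest *MxCDX2* mouse lay far below the lowest control mouse. *Hba-a1*, an adult alpha globin, had 224767, 305732 and 321454 normalized counts in control mice, against 24018, 7147 and 13818 in *MxCDX2* mice. *Hba-a2*, its duplicate, had 55932, 73851 and 97230 in control mice, against 7311, 1709 and 3161 in *MxCDX2* mice. The groups did not overlap for either alpha gene, and *MxCDX2* mouse 1 was the highest and mouse 2 the lowest of its group for all 4 genes.

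The log2 fold change was -4.24 for *Hba-a1* (SE 0.50, adjusted p = 0.00306), from a mean of 283984 ± 51883 (SD, n = 3) to 14994 ± 8497 normalized counts, that is 5.28% of the control level (quasi-likelihood test of edgeR, Benjamini-Hochberg adjusted over 15980 genes). *Hba-a2* fell by 4.22 on the log2 scale (SE 0.58, adjusted p = 0.00479 by edgeR), from 75671 ± 20709 to 4060 ± 2908. *Hbb-bs* fell by 4.19 (SE 0.57, adjusted p = 0.00453 by edgeR), from 1136110 ± 142027 to 62169 ± 37132. *Hbb-bt* fell by 4.15 (SE 0.56, adjusted p = 0.00445 by edgeR), from 248984 ± 20931 to 14050 ± 9068. The 4 changes thus ran from -4.24 to -4.15. Their SE hold a spread between mice that the 4 genes share, and do not measure the error of a difference between genes. A gene was called differentially expressed with a log2 fold change past 1 in size and an adjusted p under 0.05. By that rule 13.6% of the tested genes were called, 9.03% as lower and 4.59% as higher, beside 4 of the 4 adult globins called lower. Over all tested genes the median log2 fold change was 0.00, and the lowest 1% lay at or under -3.46. All *MxCDX2* mice lay below all control mice in 20.7% of the tested genes and for each of the 4 adult globins. Among 7485 other genes with at least 1000 normalized counts in control mice, 10 had a lower log2 fold change than *Hbb-bt*.

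**Figure D1:**
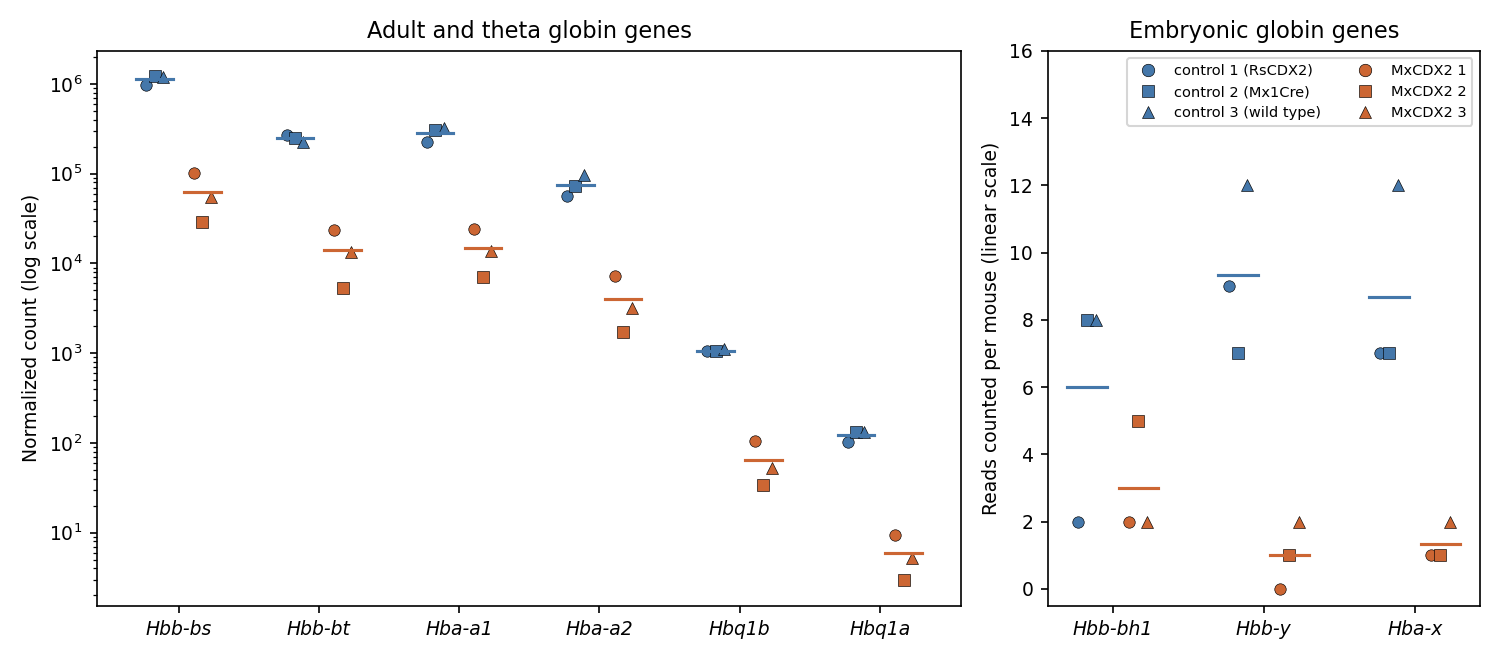
Left, normalized counts (log scale) of the 4 adult globin genes and of the theta globins *Hbq1b* and *Hbq1a*; right, reads counted per mouse (linear scale) on the 3 embryonic globin genes. Each point is a mouse and each bar a group mean; on the left every *MxCDX2* mouse lies below every control mouse, and on the right no mouse has more than 12 reads on a gene.

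The 14 fits of each adult globin, which varied the tool, the scaling, the filter, the block and the mice, all passed both thresholds, with a largest adjusted p of 0.0388 (edgeR or DESeq2). The wild-type mouse stood apart from the other controls, with 255040 summed normalized counts on 5 megakaryocyte genes against 21053 in the lowest control mouse. Without it, the log2 fold changes were -4.13 for *Hba-a1*, -3.99 for *Hba-a2*, -4.13 for *Hbb-bs* and -4.20 for *Hbb-bt*. The mouse that moved them most was *MxCDX2* mouse 1, without which they were -4.76, -4.95, -4.75 and -4.73 in the same order. Bone marrow is a mixture of cells, and fewer erythroid cells cannot be told apart from less globin RNA per cell in these libraries.

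Values of the adult globins were more spread in the *MxCDX2* group. The coefficient of variation of the adult globins ran from 8.41% to 27.4% in control mice and from 56.7% to 71.6% in *MxCDX2* mice. *MxCDX2* mouse 1 had 3.36 to 4.41 times as many normalized counts as mouse 2, depending on the gene. The range over controls was at most 1.74-fold, in *Hba-a2*. No test of this difference in spread was run.

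Per length, *Hbb-bs* had the highest level of all genes in control mice, with 32533 ± 4067 RPKM (reads per kilobase of exon, scaled to the library size, mean ± SD of 3 mice). *Hbb-bt* came next among the globins with 7789 ± 655 RPKM, then *Hba-a1* with 7691 ± 1405, which lay within the spread of *Hbb-bt*. *Hba-a2* had 2495 ± 683 RPKM, and none of its control mice reached the lowest *Hba-a1* value. In *MxCDX2* mice the levels were 1780 ± 1063 RPKM for *Hbb-bs*, 440 ± 284 for *Hbb-bt*, 406 ± 230 for *Hba-a1* and 134 ± 96 for *Hba-a2*. *Hbb-bs* then ranked 14 among all genes by mean level, *Hbb-bt* 61, *Hba-a1* 71 and *Hba-a2* 293, where they had ranked 1, 5, 6 and 13 in control mice. Whether these levels include reads that map to both genes of a pair is not known.

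The adult globins took 3.08%, 3.91% and 4.10% of all reads counted on genes in control mice 1, 2 and 3, against 0.349%, 0.101% and 0.197% in *MxCDX2* mice. Wilson 95% intervals for these shares were narrow beside the gap between mice, the widest being 4.09% to 4.10% in control 3, and cover counting error only. The *MxCDX2* shares were all lower than the lowest control share.

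Ratios between the adult chains overlapped between the groups. The ratio of alpha to beta globin reads, (*Hba-a1* + *Hba-a2*) over (*Hbb-bs* + *Hbb-bt*), was 0.226, 0.257 and 0.292 in control mice, against 0.249, 0.259 and 0.247 in *MxCDX2* mice, so that the groups overlapped. On the log2 scale the mean ratio differed by -0.03 (two-sided exact permutation p = 0.8, 3 mice against 3). The ratio of *Hba-a2* to *Hba-a1* was 0.249, 0.242 and 0.302 in control mice, against 0.304, 0.239 and 0.229 in *MxCDX2* mice, a difference of -0.04 (exact permutation p = 0.6). The ratio of *Hbb-bt* to *Hbb-bs* was 0.276, 0.205 and 0.188 in control mice, against 0.229, 0.184 and 0.243 in *MxCDX2* mice, a difference of -0.02 (exact permutation p = 0.9). The adjusted p was 0.9 for each of the 3 ratios tested (Benjamini-Hochberg, exact permutation test), and 3 mice against 3 cannot give a p below 0.1. No difference in these ratios was detectable with this number of mice. Divided by the windows of 50 bases that each gene does not share, *Hba-a2* had 0.772 to 0.967 reads for each *Hba-a1* read in control mice, against 0.731 to 0.973 in *MxCDX2* mice. With windows of 100 bases these became 0.543 to 0.681 and 0.515 to 0.685. The level of *Hba-a2* relative to *Hba-a1* therefore depends on how many reads each gene can keep, which is not known here. So does the level of alpha relative to beta. The shared 50-base windows were 67.5% and 86.9% in the alpha genes, against 65.8% and 58.3% in the beta genes. For *Hbb-bt* to *Hbb-bs*, either window length gave 0.136 to 0.200 in control mice, against 0.133 to 0.176 in *MxCDX2* mice. The comparison between groups is made on the same genes.

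**Figure D2:**
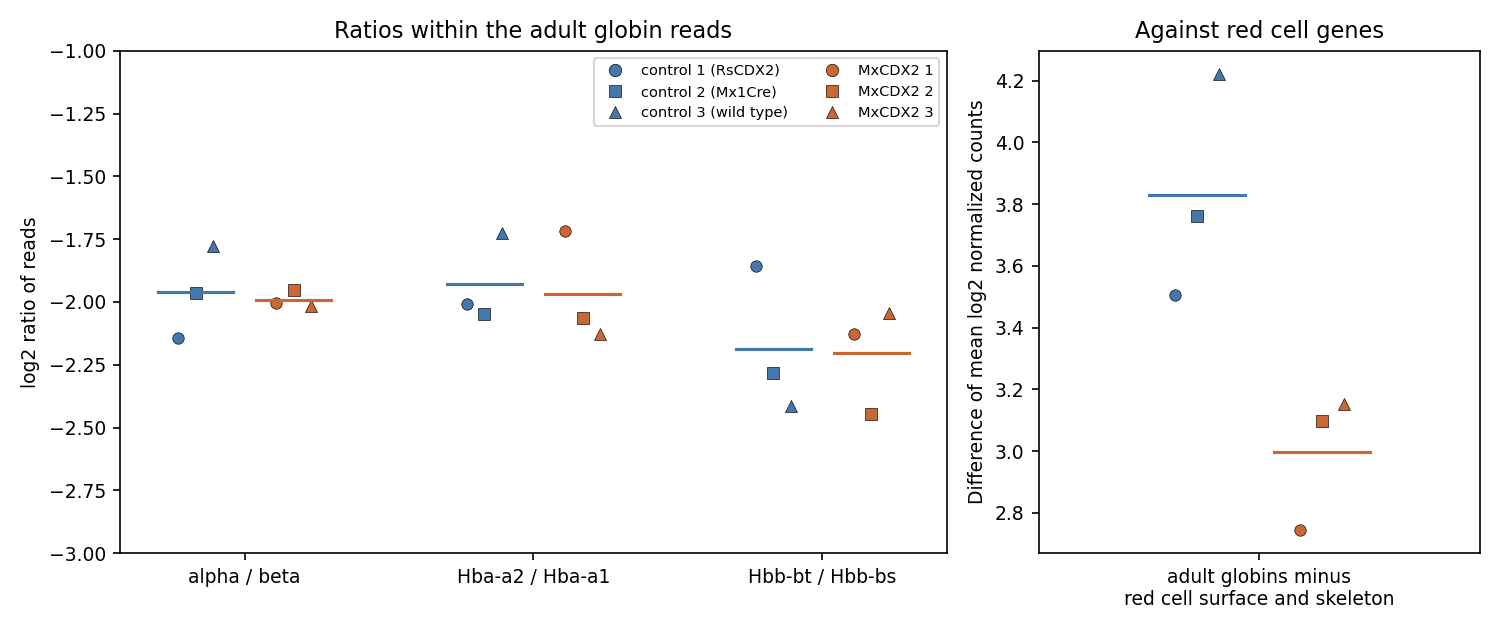
Left, log2 ratios of reads within the adult globins in each mouse; right, mean log2 normalized count of the 4 adult globins minus that of 14 red cell surface and skeleton genes. Points are mice and bars group means; the groups overlap for the 3 ratios on the left, and the *MxCDX2* values on the right (2.74 to 3.15) lie below the control values (3.50 to 4.22).

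The embryonic globins were near the limit of detection in both groups. *Hbb-bh1*, a beta-like globin of primitive red cells, had 2, 8 and 8 reads in control mice, against 2, 5 and 2 in *MxCDX2* mice. *Hbb-y*, the epsilon-like embryonic beta globin, had 9, 7 and 12 reads in control mice, against 0, 1 and 2 in *MxCDX2* mice. *Hba-x*, the zeta-type embryonic alpha globin, had 7, 7 and 12 reads in control mice, against 1, 1 and 2 in *MxCDX2* mice. The groups overlapped for *Hbb-bh1* and did not for *Hbb-y* and *Hba-x*.

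None of the 3 passed the count filter of the edgeR test. In an edgeR fit over all 25488 genes with at least 1 count, in which 5.95% were called lower, *Hbb-y* fell by 3.17 on the log2 scale (SE 0.82, adjusted p = 0.0353) and *Hba-x* by 2.66 (SE 0.68, adjusted p = 0.0323). *Hbb-bh1* had a log2 fold change of -0.995 (adjusted p = 0.455, edgeR). DESeq2 gave -3.36 for *Hbb-y* (adjusted p = 0.0229), -2.80 for *Hba-x* (adjusted p = 0.0383) and -1.04 for *Hbb-bh1* (adjusted p = 0.541). From summed reads, the *MxCDX2* to control ratio was 0.107 for *Hbb-y* (exact 95% interval 0.0209 to 0.348, from 3 and 28 reads), 0.154 for *Hba-x* (0.0391 to 0.445, from 4 and 26 reads) and 0.501 for *Hbb-bh1* (0.198 to 1.18, from 9 and 18 reads). These intervals cover counting error only.

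Counted against the adult genes, the embryonic reads numbered 15.1, 11.8 and 15.7 per 1000000 adult globin reads in control mice, against 20.2, 159 and 60.9 in *MxCDX2* mice. The *MxCDX2* values rest on 3, 7 and 6 embryonic reads. The exact 95% interval of *MxCDX2* mouse 1, 4.17 to 59.2 per 1000000, held all 3 control values. Those of mice 2 (64.0 to 328) and 3 (22.4 to 133) lay above these values, but the interval of control 1 (8.96 to 23.9) overlapped that of mouse 3. Such intervals cover counting error only. Of the 7 reads in *MxCDX2* mouse 2, 5 were on *Hbb-bh1*. Without *Hbb-bh1* the values were 13.4, 7.48 and 11.8 in control mice, against 6.75, 45.5 and 40.6 in *MxCDX2* mice, so that the groups overlapped, mouse 1 being below all controls. The embryonic reads themselves numbered 18, 22 and 32 in the controls, more than in any *MxCDX2* mouse, so the higher ratio in mice 2 and 3 goes with fewer adult reads and not with more embryonic ones.

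The other genes of the clusters were examined next, because they share the same surroundings. *Hbq1b* and *Hbq1a*, the theta globins beside each alpha gene, followed the adult globins. *Hbq1b* had 1052, 1057 and 1108 normalized counts in control mice, against 106, 34.3 and 53.1 in *MxCDX2* mice, and fell by 4.06 on the log2 scale (SE 0.43, adjusted p = 0.00231, edgeR). *Hbq1a* had 104, 133 and 131 in control mice, against 9.53, 2.94 and 5.22 in *MxCDX2* mice, and fell by 4.36 (SE 0.46, adjusted p = 0.00237, edgeR). Its *MxCDX2* values rest on 9, 3 and 6 reads, so it passed the count filter through the control mice. The groups were fully separated for both theta globins, and the coefficient of variation of *Hbq1b* was 2.90% in the controls and 57.6% in the *MxCDX2* group. The theta duplicates shared 36.8% (*Hbq1a*) and 39.8% (*Hbq1b*) of their 50-base windows, so their split is uncertain too. *Hbb-bh2* had 0, 11 and 1 reads in control mice, against 0, 0 and 1 in *MxCDX2* mice, and the pseudogene *Hbb-bh0* had at most 2 reads in any mouse.

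Within 250 kb of the alpha cluster, 14 genes other than its members were annotated, and 12 were tested, of which 3 were called lower and 1 higher. The genes called lower were the theta globins and *Nprl3*, so *Nprl3* was the only one outside the globin family. It is a regulator of the mTORC1 pathway whose introns hold alpha globin enhancers, lies 8.69 kb before the cluster, with a mean of 1948 ± 228 normalized counts in control mice against 804 ± 98 in the *MxCDX2* group. The log2 fold change of -1.28 (SE 0.15, adjusted p = 0.00296, edgeR) was smaller than that of any adult globin. *Mpg*, a DNA glycosylase 43.7 kb before, did not pass (-0.22, adjusted p = 0.551, edgeR). The gene called higher was *Sh3pxd2b*, a podosome adaptor 50.5 kb after the cluster, which is named after its value was seen (log2 fold change 1.43, adjusted p = 0.016, edgeR). Around the beta cluster 42 genes were annotated, of which 34 were olfactory receptors and 1 was tested, *Dnajc19-ps*, with a log2 fold change of 0.31 (adjusted p = 0.644, edgeR).

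**Figure D3:**
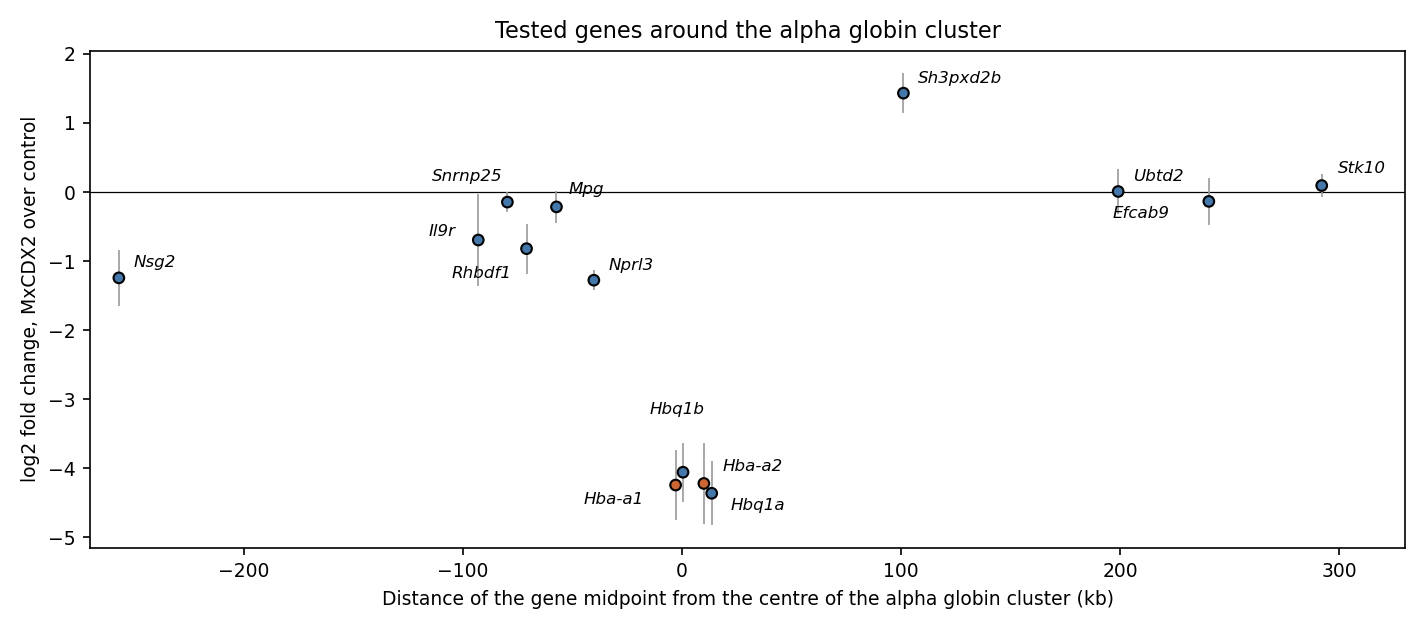
Log2 fold change (point) with SE (bar) of the tested genes around the alpha globin cluster against the distance of each gene's midpoint from the centre of the cluster in kb. *Hba-a1* and *Hba-a2* are in orange; they and the theta globins lie between -4.36 and -4.06, and *Nprl3* at -1.28.

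Of 4 globins outside the clusters, 2 were tested and 1 was called. Cytoglobin (*Cygb*), expressed in fibroblast-like cells, had 54.9, 48.7 and 124 normalized counts in control mice, against 18.0, 28.4 and 40.0 in *MxCDX2* mice (log2 fold change -1.39, adjusted p = 0.0938, edgeR). With DESeq2, *Cygb* passed both thresholds as lower (adjusted p = 0.0373). Androglobin (*Adgb*) had 17.9, 31.8 and 36.5 normalized counts in control mice, against 55.1, 98.0 and 74.9 in *MxCDX2* mice, and was called higher (log2 fold change 1.39, SE 0.39, adjusted p = 0.0473, edgeR). Leaving out any mouse other than control 3 took *Adgb* out of the calls (adjusted p from 0.0613 to 0.13, edgeR). Myoglobin (*Mb*) and neuroglobin (*Ngb*) were below the filter.

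Heme must be made in step with globin, and 11 of the 12 genes of heme synthesis and its mitochondrial supply were called lower, with a median log2 fold change of -2.31. The largest fall was in *Alas2*, the erythroid first enzyme of the pathway, with 91374, 110115 and 82899 normalized counts in control mice, against 10141, 2859 and 5219 in *MxCDX2* mice (log2 fold change -3.96, SE 0.49, adjusted p = 0.00343, edgeR). The smallest change was in *Tmem14c*, a mitochondrial porphyrin carrier, whose log2 fold change of -0.87 was under the threshold (adjusted p = 0.0157, edgeR). In *Alas2*, as in the globins, *MxCDX2* mouse 1 was the highest and mouse 2 the lowest, and without mouse 1 its log2 fold change was -4.55.

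Of 6 genes of heme sensing and breakdown, 3 were called lower and 3 were not called. *Eif2ak1*, the heme-regulated kinase that holds back globin translation when heme is short, had 9806 ± 710 normalized counts in control mice, against 4710 ± 237 in the *MxCDX2* group, with a log2 fold change of -1.06 (adjusted p = 0.00191, edgeR) that was -0.94 and under the threshold with total counts only. *Blvrb*, a red cell biliverdin reductase, fell by 2.61, and *Blvra*, the other biliverdin reductase, had a log2 fold change of 0.56 (adjusted p = 0.13, edgeR).

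Among 11 regulators of globin transcription, 6 were called lower, with a list median of -1.78. *Klf1*, the erythroid factor that binds CACCC boxes, fell by 3.40 on the log2 scale (adjusted p = 0.0129, edgeR), and *Gata1*, the erythroid GATA factor, had a log2 fold change of -3.01 (adjusted p = 0.00749, edgeR). *Bcl11a*, a repressor of embryonic and fetal globins that B cells also express, fell by 1.79 (adjusted p = 0.00212, edgeR). *Myb*, which is high in progenitors, had a log2 fold change of 0.05 (adjusted p = 0.925, edgeR). Without *MxCDX2* mouse 3, *Klf1* did not pass, with a log2 fold change of -3.12 (adjusted p = 0.0550, edgeR), and without mouse 1 it was -4.46.

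The red cell lists gave a scale for the fall of the globins. All 14 red cell surface and skeleton genes were called lower, with a median of -3.40, from *Epor*, the erythropoietin receptor (-3.60), to *Tfrc*, the transferrin receptor (-2.13). Without *MxCDX2* mouse 3, 4 of the 14 were called (adjusted p from 0.0188 to 0.0680, edgeR), although the median of the 14 was -3.21, and without mouse 1 the median was -4.31 and *Epor* was at -4.49. All 6 red cell enzymes were called lower, with a median of -3.62, from *Car1*, a carbonic anhydrase (-4.12), to *Cat*, catalase (-1.31), and *Car1* was at -4.89 without *MxCDX2* mouse 1. The mean log2 normalized count of the adult globins stood 3.50, 3.76 and 4.22 above that of the surface and skeleton genes in control mice, and 2.74, 3.10 and 3.15 above it in *MxCDX2* mice. The groups did not overlap, and the distance was 0.83 smaller in *MxCDX2* mice. With the median over the genes in place of the mean, the difference was -0.605. The values were then 3.53, 3.72 and 4.07 in control mice, against 2.73, 3.33 and 3.43 in *MxCDX2* mice. By means, the distance was 1.05 smaller against the red cell enzymes and 2.03 smaller against the heme synthesis genes. The heme comparison changes the value by more than 1.5 times, and it was added after seeing the data, as was that with the enzymes. No p is given, since both sides are scores over chosen genes.

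**Figure D4:**
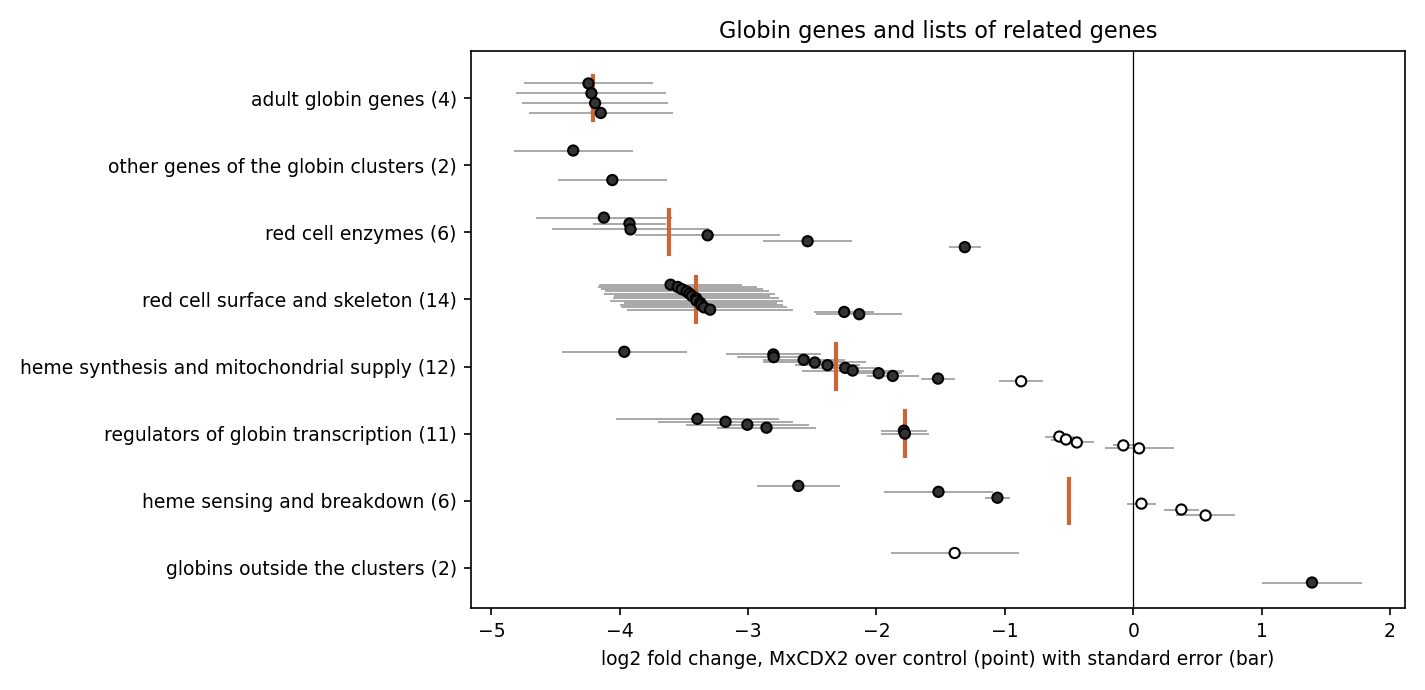
Log2 fold change of each tested gene (point) with SE (bar) in the adult globins and 7 lists of related genes, with the number tested in parentheses. Filled points passed both thresholds and open points did not; orange marks are medians of lists of more than 2 genes, which run from -4.21 in the adult globins to -0.50 in heme sensing and breakdown.

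Over the 6 mice, the genes most like the adult globins were sought among 11978 tested genes averaging 100 normalized counts or more, by the root mean square difference of their centred log2 profile from the mean profile of the 4 adult globins. Among the 8 nearest were *Hbq1b* (0.183), *Alas2* (0.211), *Bex4* (0.269), *Slc38a5*, a glutamine transporter (0.273), *Pklr*, the red cell pyruvate kinase (0.314), *Epor* (0.331) and *Tspan8* (0.335). The members themselves lay at 0.0498 (*Hbb-bs*) to 0.194 (*Hbb-bt*). *Hbq1b* thus lay nearer to the mean profile than *Hbb-bt* did.

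Markers of other marrow cells differed between the same groups. Monocyte markers summed to 20341 to 33400 normalized counts in control mice, against 80264 to 123365 in *MxCDX2* mice, with 3 of 5 called higher, from *Ccr2* (2.75) to *Fcgr1* (0.08, not called). Neutrophil markers summed to 1874510 to 3047150 and 857993 to 1157360 (4 of 8 called lower, *Retnlg* -2.41 to *Mpo* 0.31). B cell markers summed to 16930 to 43048 and 3633 to 11700 (4 of 6 called lower, *Ms4a1* -2.41 to *Vpreb1* -1.52), and *Ms4a1* lost its call without control 2 (-2.19) or *MxCDX2* mouse 3 (-2.40). T and NK cell markers summed to 3086 to 7534 and 1333 to 2700 (1 of 6 called lower, *Cd4* -2.64 to *Cd3g* -0.15), with *Cd4* at -1.92 without control 3 and not called without *MxCDX2* mouse 2. Megakaryocyte markers summed to 21053 to 255040 and 9710 to 13441 (1 of 5 called lower, *Gp1bb* -3.80 to *Itga2b* -2.58). Neither *Gp1bb* nor *Itga2b* was the gene called. *Gp1bb* was called without control 1 (-4.26), control 2 (-4.31) or control 3 (-1.38). *Itga2b* was at -0.76 without control 3 and was not called. Stromal and endothelial markers summed to 14008 to 52944 and 5666 to 13640 (2 of 5 called lower, *Lepr* -1.97 to *Col1a1* -0.90). Neither *Lepr* nor *Col1a1* was among the 2 called. *Lepr* was called with DESeq2 (-1.96), with the replicate block (-1.86) and without control 2 (-2.39). *Col1a1* was called without *MxCDX2* mouse 3 (-2.09). Markers of each of these lineages were counted in both groups, and the part of each list in the globin values was not tested. Between 38646101 and 49899650 reads per mouse were counted on genes, which leaves the precision of the adult globins to the spread between mice and that of the embryonic ones to depth.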

How the data were processed

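Stranded mRNA libraries (TruSeq) of bone marrow RNA were sequenced from 6 mice. The authors aligned the reads with STAR (2.5) to GRCm38 (Ensembl 90), counted them per gene with HTSeq (0.6.1) and deposited raw counts, not normalized, for each mouse. Between 9.22% and 14.1% of reads fell on no gene and 2.99% to 3.16% were ambiguous, and these lines were left out. Read length is not given in the sources used here. Groups came from the sample labels. Gene names and positions came from GENCODE M21, where 37693 of 39179 identifiers matched, and promoters from RefSeq. The members and lists were chosen with earlier results of these data known.

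The tests were run with edgeR 4.0.16 in R 4.3.3 (TMM, default filterByExpr, glmQLFit and glmQLFTest), with p-values adjusted by the Benjamini-Hochberg method over 15980 genes. Calls needed a log2 fold change past 1 in size and an adjusted p under 0.05. The SE came from the F statistic. Profiles were log2 of normalized counts plus 0.5. Alternatives were DESeq2 1.42.0, its size factors, total counts only, members left out of the library sizes, 2 other filters, the replicate block and each mouse left out in turn. The code was tested on simulated data. Each sample was 1 mouse. RPKM values used the exon lengths of GENCODE M21.

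The genes named were all members, the largest and smallest change of each list, *Alas2*, *Eif2ak1*, *Klf1*, *Gata1*, *Bcl11a*, tested genes within 50 kb of a member, and the 8 genes most like the adult globins; a gene of that set and a monocyte marker are not reported here. The comparisons with the heme and enzyme lists were added after seeing the data. The planned ratio of *Ahsp* to alpha globin was not run.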

Additional observations from a re-analysis of the deposited data

How the results depend on the processing

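The adult globins kept their direction and calls under every alternative run. Over the leave-one-out fits the log2 fold change ran from -4.76 to -3.90 (*Hba-a1*), -4.95 to -3.85 (*Hba-a2*), -4.75 to -3.84 (*Hbb-bs*) and -4.73 to -3.75 (*Hbb-bt*). With 2177 genes called in all, DESeq2 called 2903, and leaving out 1 mouse gave 1205 (without *MxCDX2* mouse 3) to 2406. Members called numbered 4, and 6 with DESeq2 or with every gene of at least 1 count, where *Hbb-y* and *Hba-x* were added, and 4 to 5 over the leave-one-out fits. The near-zero ratio differences changed sign with the mice kept, from -0.121 to 0.0623 for alpha to beta, -0.169 to 0.0586 for *Hba-a2* to *Hba-a1* and -0.134 to 0.144 for *Hbb-bt* to *Hbb-bs*, and with medians the last was 0.157. The share of reads on the adult globins differed by -3.48 percentage points (*MxCDX2* minus control) and by -4.29 with the 100 most abundant other genes left out of the denominator, which follows from the smaller denominator. The distance of the globins from the heme list differed by -2.03 between the groups (*MxCDX2* minus control). It differed by -0.83 for the surface and skeleton list, and there by -0.605 with medians over the genes. The cause of these differences was not tested. Leave-one-out fits reversed the sign of *Myb* (lowest -0.20, highest 0.28), *Mpo* (-0.11 to 0.72), *Cd3g* (-0.86 to 0.67) and *Fcgr1* (-0.15 to 0.48), none of them called.

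The replicate block used numbers that name control mice only by their order of listing, so the mice share a number and no stated pairing. Deviations of same-numbered mice correlated at 0.158, 0.288 and 0.176. With the replicate block 2205 genes were called, the adult globins had log2 fold changes of -4.40, -4.47, -4.37 and -4.37 (*Hba-a1*, *Hba-a2*, *Hbb-bs*, *Hbb-bt*), and no member changed its call.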
